A study of Mus musculus with 56 samples.

Results

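Livers of mice given nilotinib, at either of 2 doses, were compared with livers of mice given L-NAME, gene by gene, to find what, if anything, set nilotinib apart. The comparison used 24 of the 56 mice that were sequenced, chosen by their treatment label alone. Nilotinib was given to 16 mice (8 mice at 10 mg/kg and 8 mice at 30 mg/kg, by gavage 1 time a day), and L-NAME to 8 mice in the drinking water, at 0.12 to 0.20%, with gavages of the vehicle. The other groups, of 8 mice each, received the vehicle alone (5% carboxymethyl cellulose), imatinib at 150 mg/kg with 2 gavages a day, or ponatinib at 3 or 10 mg/kg, and they serve here as points of reference. All were female APOE*3Leiden.CETP mice, aged between 9 and 14 weeks at the start, and all ate a Western-type diet with 15% cacao butter and 0.15% cholesterol. The study's methods give 16 weeks of treatment before the liver was taken, and the L-NAME group's own schedule was not given in the sources used here. The mice carry human APOE*3Leiden, APOC1 and CETP transgenes and clear remnant lipoproteins slowly on such a diet, as a model of human lipoprotein metabolism, and no mice on a chow diet or without the transgenes were analysed here.

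Nilotinib is an inhibitor of the BCR-ABL1 kinase that is used against chronic myeloid leukemia. It also blocks KIT, the PDGF receptors, CSF1R and the collagen receptors DDR1 and DDR2, and it inhibits the enzyme UGT1A1, which conjugates bilirubin in the liver. L-NAME is an arginine analog that blocks the nitric oxide synthases. It raises blood pressure and is used to produce endothelial dysfunction in rodents. The liver makes lipoproteins, bile acids, most coagulation factors and the acute-phase proteins, and its hepatocytes hold a large endoplasmic reticulum (ER) in which these secreted proteins are folded.

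The files gave reads per gene for each mouse. Between 5342379 and 8260305 reads were counted on genes in the 16 nilotinib mice, and between 6988328 and 97473341 in the 8 L-NAME mice, where the highest belongs to 1 mouse (number 10) and the other 7 ended at 8983406. Among uniquely aligned reads, 10.12% ± 1.13 (SD, n = 16) lay outside annotated genes with nilotinib, 10.99% ± 2.45 (n = 8) with L-NAME and 7.97% ± 0.42 (n = 8) with the vehicle. The difference between nilotinib and L-NAME was -0.869 percentage points (exact two-sided permutation test over mice, p = 0.257), while all 16 nilotinib mice and all 8 L-NAME mice lay above the highest vehicle mouse, at 8.67%. The part of this share in the differences from vehicle cannot be told apart from that of the treatments. The hepatocyte markers together took between 78580 and 122100 CPM (reads of a gene scaled to a common library size) with nilotinib and between 93920 and 118900 with L-NAME, so the tissue label held in every mouse. Of 10 genes of the exocrine pancreas, 7 had no read in any of the 24 mice.

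Nilotinib and L-NAME livers were not told apart by any single gene at the threshold used here. In edgeR's quasi-likelihood test, 0 of the 14314 genes tested (0%) had a Benjamini-Hochberg adjusted p below 0.05, the threshold for calling a gene here, and the smallest adjusted p was 0.127. In the same fit 934 genes (6.53%) differed between nilotinib and vehicle and 1675 (11.7%) between L-NAME and vehicle. With the share of reads outside genes as a covariate these counts were 171 and 254. These comparisons share the nilotinib mice or the L-NAME mice with the first, so their counts stand side by side and are not independent. Against the other kinase inhibitors, 731 genes (5.11%) differed between nilotinib and imatinib and 998 (6.97%) between nilotinib and ponatinib, both doses averaged.

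**Figure D1:**
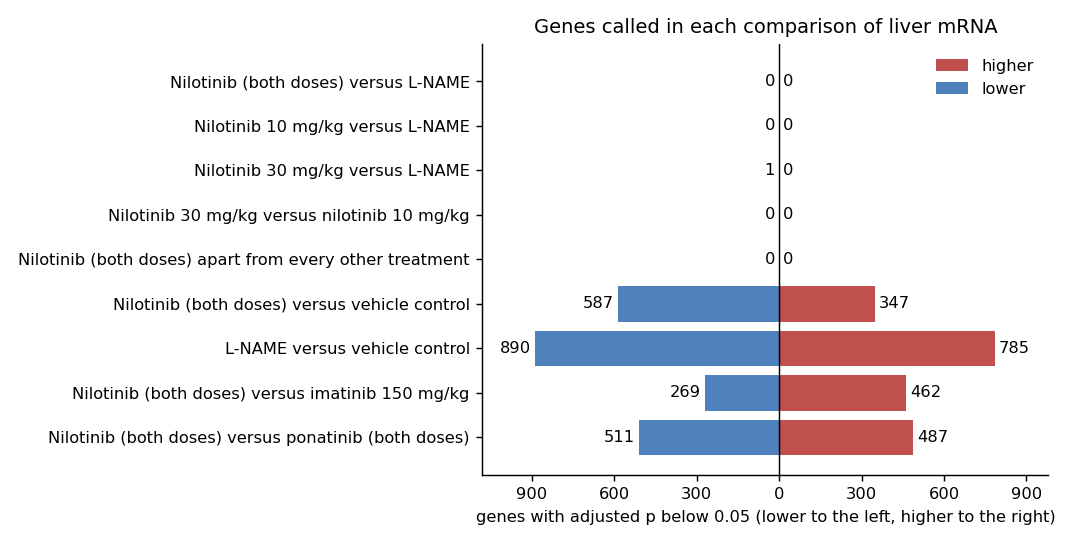
Horizontal bars give the number of genes with an adjusted p below 0.05 in edgeR, lower to the left and higher to the right of 0, for each comparison named at the left. The 5 upper comparisons, all between nilotinib doses, L-NAME or the joint test, hold 0 or 1 gene, and the 4 lower ones hold 731 to 1675.

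Without adjustment, 1086 genes had a p below 0.05 and 296 (2.07%) a p below 0.01, of which 131 (0.915%) were higher and 165 (1.15%) lower with nilotinib. DESeq2 called 2 genes, Ero1b (log2 difference 0.81) and Plxnb1 (-0.51), both at an adjusted p of 0.0258. Limma voom with sample quality weights called 5, namely Mt1, Mt2, Akap8l, Sorbs3 and Clptm1l, with adjusted p from 0.0444 to 0.0453. Neither tool called a gene of the other. The 16 nilotinib mice and the 8 L-NAME mice overlapped in CPM in every gene tested, so the count without overlap was 0 of 14314 (0%). The genes that only DESeq2 or voom called outside the lists (Plxnb1, Akap8l, Sorbs3 and Clptm1l) were chosen after their values were seen. Most genes named below from the lists were the members with the smallest p in this comparison, so they too were picked by their values.

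A gene that misses the threshold may still differ, and the width of the intervals says by how much. Among the 10402 genes with a mean of at least 5 CPM over the 24 mice, 93.6% had a 95% interval of the nilotinib to L-NAME difference that lay wholly within 2-fold in either direction, and 63.8% within 1.5-fold. Among the 2822 genes at 50 CPM or more these shares were 97.6% and 88.3%. The median size of the difference over the 10402 genes was 0.137 on the log2 scale, against 0.204 for nilotinib and vehicle and 0.265 for L-NAME and vehicle. Of the same genes, 21 had an estimate of over 2-fold between nilotinib and L-NAME, whereas 45 did between nilotinib and vehicle, 173 between L-NAME and vehicle and 340 between nilotinib and imatinib. Between nilotinib 30 and 10 mg/kg the median size was 0.137 and 37 genes had an estimate of over 2-fold. These comparisons set 16 against 8 mice or 8 against 8, so their sizes are not on the same footing.

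**Figure D2:**
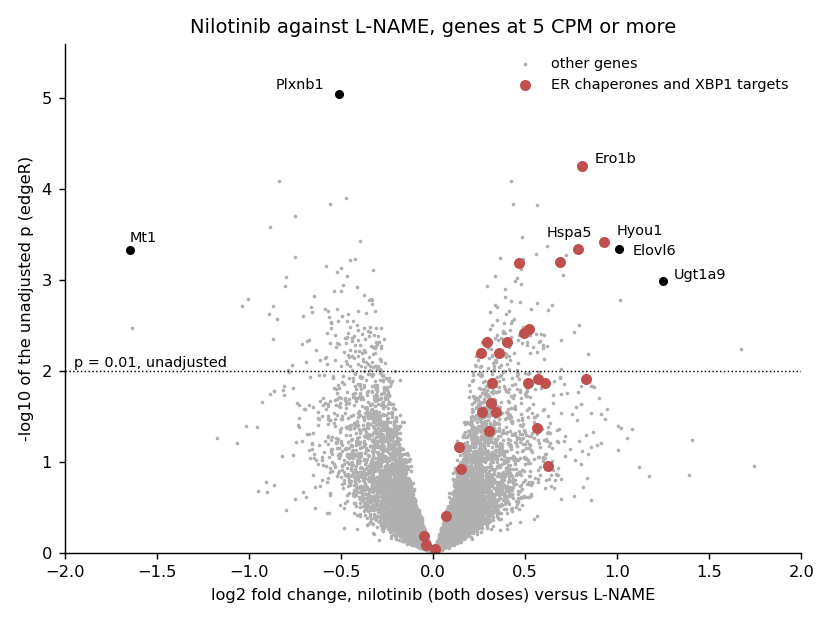
Each point is a gene with a mean of 5 CPM or more over the 24 mice, with its log2 difference of nilotinib (both doses) from L-NAME on the horizontal axis and -log10 of the unadjusted p from edgeR on the vertical axis. The 28 ER chaperone genes and XBP1 targets (red) lie mostly to the right, with 11 of them above the dotted line that marks an unadjusted cut-off of 0.01, and no gene of any list was called after adjustment in edgeR.

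The doses were also taken apart. Nilotinib 10 mg/kg against L-NAME gave 0 called genes, 1156 at an unadjusted p below 0.05 and 298 below 0.01 (2.08%), while DESeq2 called 16 and voom 0. Nilotinib 30 mg/kg against L-NAME gave 1 called gene (0.00699%), Plxnb1, with 821 genes at an unadjusted p below 0.05 and 213 below 0.01 (1.49%), while DESeq2 called 1 and voom 32. Between 30 and 10 mg/kg no gene was called by edgeR or voom, 786 had an unadjusted p below 0.05, 179 a p below 0.01 (1.25%), and DESeq2 called 2. Of those, 1 is Spsb3 (log2 difference 0.91, adjusted p = 0.0267 in DESeq2) and the other has no symbol in the annotation. Among genes at 5 CPM or more, 89.1% had an interval of the difference between doses within 2-fold.

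Plxnb1 encodes plexin B1, a receptor for the semaphorin SEMA4D. The gene lies on chromosome 9 at 109095389 to 109119917 (GRCm38, plus strand). It was at 45.8 to 86.1 CPM with nilotinib 30 mg/kg (median 56.8), 57.0 to 90.0 with 10 mg/kg (median 74.4), 71.3 to 119 with L-NAME (median 100.1) and 57.5 to 93.2 with the vehicle (median 75.3). L-NAME mice were the high group, and the vehicle range overlapped that of the nilotinib mice, with the 30 mg/kg median below the lowest vehicle mouse. Plxnb1 was lower with 30 mg/kg than with L-NAME by a log2 difference of -0.66 (95% interval -0.91 to -0.41, adjusted p = 0.0255). Over both doses the difference was -0.51 (-0.73 to -0.30, adjusted p = 0.127), with 10 of 16 nilotinib mice below every L-NAME mouse. Its difference between doses was -0.29 (-0.54 to -0.04, adjusted p = 0.825), and between L-NAME and vehicle 0.35 (adjusted p = 0.0552). The call at 30 mg/kg was lost when the 2 groups were fitted alone and when the 3 mice of these groups with over 12% of reads outside genes were left out.

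To ask what was particular to nilotinib, a gene was required to differ in the same direction from L-NAME, vehicle, imatinib and ponatinib at the same time, taking the largest of the 4 p-values. No gene was called in this joint test (0% of 14314, and 0 by DESeq2 and by voom). At an unadjusted largest p below 0.05 there were 31 genes, and below 0.01 there were 2 (0.014%), both lower with nilotinib. Cdc42bpg, chosen after its values were seen, encodes a kinase that acts downstream of the small GTPase CDC42. It was at 10.7 to 25.8 CPM with nilotinib (median 19.7), 17.9 to 37.1 with L-NAME (median 26.9) and 22.2 to 37.6 with the vehicle (median 29.1). Its log2 difference was -0.52 from L-NAME (adjusted p = 0.339), -0.62 from vehicle (adjusted p = 0.00476), -0.84 from imatinib (adjusted p = 0.000138) and -0.76 from ponatinib (adjusted p = 3.94e-05). Arg1, the arginase of the urea cycle, was the other gene and is described with the arginine genes.

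The list with the highest median difference from L-NAME was that of the ER chaperones and targets of XBP1, a transcription factor of the unfolded protein response. When unfolded proteins build up in the ER, the sensor IRE1 splices the Xbp1 message and ATF6 is released to the nucleus, and both factors raise genes for chaperones, disulfide enzymes and the machinery that exports misfolded proteins. All 28 genes of the list were tested. In edgeR none was called, while DESeq2 called 1, Ero1b, and voom 0. In edgeR 11 were higher at an unadjusted p below 0.01 (against 0.915% of all genes), none was lower at that level, and 26 of 28 differences were positive. The median log2 difference over the 28 genes was 0.38 (all genes tested 0), and it was 0.44 for 10 mg/kg and 0.36 for 30 mg/kg.

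The same list, set against the other groups, shows where these levels lay. L-NAME was lower than vehicle in 13 of the 28 genes at an adjusted p below 0.05 (against 6.22% of all genes), with a median log2 difference of -0.44. Between nilotinib and vehicle edgeR called 0 of the 28 (7 at an unadjusted p below 0.05, median -0.01). DESeq2 called 2 of the 28, both higher, and voom called 2 higher and 4 lower. Of all 14314 genes, DESeq2 called 634 higher and 650 lower in that comparison, and voom 1020 higher and 1479 lower. The median difference of the list from imatinib was 0.03. Against ponatinib, 14 of 28 were higher with nilotinib (against 3.4% of all genes), with a median of 0.33. These comparisons share mice with the comparison of nilotinib and L-NAME.

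Many of these promoters hold the ER stress response element, CCAAT and CCACG with 9 bases between, which ATF6 and XBP1 bind with NF-Y. The first 250 bases before the start of 4 members are shown to let that element be seen beside the values, 5′ to 3′ on the strand of the gene, from RefSeq on GRCm38.p6. Capitals mark each match to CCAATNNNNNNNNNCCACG or to its reverse complement.
Hspa5 (chr2:34771840-34772089, plus strand): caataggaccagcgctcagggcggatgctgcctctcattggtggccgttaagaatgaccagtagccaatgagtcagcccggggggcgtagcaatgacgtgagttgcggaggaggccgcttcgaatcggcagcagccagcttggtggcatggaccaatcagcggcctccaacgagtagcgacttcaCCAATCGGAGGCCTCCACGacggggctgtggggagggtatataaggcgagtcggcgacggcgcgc
Hsp90b1 (chr10:86705445-86705694, minus strand): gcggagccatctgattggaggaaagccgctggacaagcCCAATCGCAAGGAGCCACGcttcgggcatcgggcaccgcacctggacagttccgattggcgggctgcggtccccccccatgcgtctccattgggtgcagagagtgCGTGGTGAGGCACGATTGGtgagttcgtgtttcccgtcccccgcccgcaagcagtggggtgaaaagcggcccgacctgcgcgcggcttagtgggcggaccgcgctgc
Ero1b (chr13:12565633-12565882, plus strand): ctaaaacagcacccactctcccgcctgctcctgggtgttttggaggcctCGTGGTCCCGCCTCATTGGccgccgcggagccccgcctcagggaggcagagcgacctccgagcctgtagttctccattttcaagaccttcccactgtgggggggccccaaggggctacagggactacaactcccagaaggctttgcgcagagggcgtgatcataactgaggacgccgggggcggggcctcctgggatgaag
Dnajc3 (chr14:118937682-118937931, plus strand): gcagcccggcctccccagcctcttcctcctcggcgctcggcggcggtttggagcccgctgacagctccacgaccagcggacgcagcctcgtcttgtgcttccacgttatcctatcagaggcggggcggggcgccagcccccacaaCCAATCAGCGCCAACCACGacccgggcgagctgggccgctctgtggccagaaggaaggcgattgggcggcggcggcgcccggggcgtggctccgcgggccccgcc

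In windows of 250 bases before to 50 bases after the start, on both strands, the element was present in 39 of 32851 promoters (0.119%), or 37 of 27025 genes (0.137%). Of the 28 list members, 24 had a window in RefSeq and 10 of these 24 held a match. The match began 65 bases before the start in Hspa5, 212 and 107 bases before it in Hsp90b1, 201 in Ero1b and 105 in Dnajc3. A match is a description of the sequence. The list was drawn up as ER chaperones and targets of XBP1, which binds this element, so its share of matches is no result of these data. The members without a match in this window include Dnajb9, whose difference was among the larger ones. Hyou1, with the largest difference of the list, had no window to search.

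Ero1b (Ero1lb in the annotation used for symbols, on chromosome 13 at 12565874 to 12611396) encodes an oxidase that regenerates disulfide-forming enzymes. It was at 40.1 to 94.3 CPM with nilotinib (median 66.8), 26.2 to 54.4 with L-NAME (median 34.8) and 26.5 to 114 with the vehicle (median 58.6). The groups overlapped, with 11 of 16 nilotinib mice above every L-NAME mouse and all 16 above the L-NAME median. The log2 difference from L-NAME was 0.81 (95% interval 0.44 to 1.18, adjusted p = 0.268 in edgeR). L-NAME was lower than vehicle by a log2 difference of -0.74 (adjusted p = 0.0114).

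Hspa5 encodes BiP, the main ER member of the HSP70 family (chromosome 2, 34771970 to 34777547). It was at 560 to 2173 CPM with nilotinib (median 1410), 591 to 1047 with L-NAME (median 724.5) and 652 to 2751 with the vehicle (median 1224). Of the nilotinib mice, 12 lay above every L-NAME mouse and 1, at 30 mg/kg, lay below every L-NAME mouse. The log2 difference was 0.78 (0.36 to 1.20, adjusted p = 0.317), against -0.86 for L-NAME and vehicle (adjusted p = 0.0106).

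Hyou1, an ER chaperone that works with BiP, was at 119 to 423 CPM with nilotinib (median 278), 82.1 to 205 with L-NAME (median 131) and 124 to 698 with the vehicle (median 296). Its difference of 0.93 (0.44 to 1.42, adjusted p = 0.317) was the largest of the list, and 11 of 16 nilotinib mice lay above every L-NAME mouse. Dnajb9, a BiP cofactor induced by XBP1, had medians of 76.0 CPM with nilotinib, 44.6 with L-NAME and 67.6 with the vehicle, and a difference of 0.69 (0.31 to 1.07, adjusted p = 0.319). Hsp90b1 and Dnajc3, chosen after their values were seen for their promoters, encode the ER form of HSP90 and a BiP cofactor. Their medians were 999.5 against 731 CPM and 279 against 205 CPM, with differences of 0.47 (adjusted p = 0.319) and 0.40 (adjusted p = 0.405). At the other end, Xbp1 itself differed by -0.05 (adjusted p = 0.972) and P4hb, a protein disulfide isomerase, by 0.07 (adjusted p = 0.92).

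**Figure D3:**
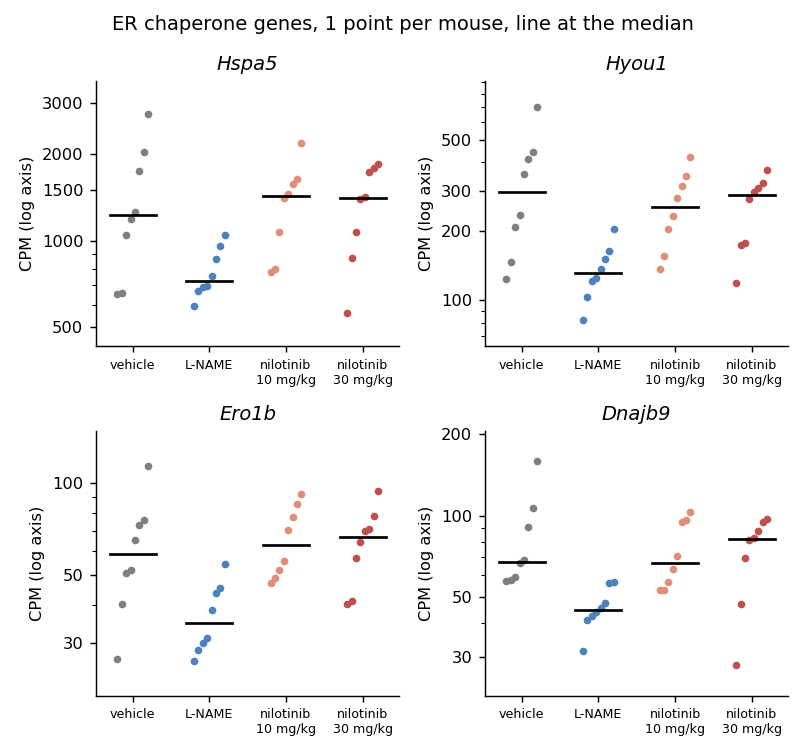
CPM on a log axis for 4 ER chaperone genes in the vehicle, L-NAME, nilotinib 10 mg/kg and nilotinib 30 mg/kg groups, with 1 point per mouse and a line at the group median (8 mice each). In each gene the L-NAME median is the lowest of the 4 and the nilotinib points overlap the vehicle points.

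The counts of the ER list moved with the way the libraries were modeled. The number of members higher at an unadjusted p below 0.01 was 7 when the share of reads outside genes entered as a covariate, and 15 in DESeq2, and the number lower with L-NAME than with vehicle went from 13 to 1 with that covariate. Bulk liver cannot tell apart fewer cells of a type from less RNA of a gene per cell, here and for all genes that follow.

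Drug metabolism was examined next, because nilotinib is cleared by the liver. CAR and PXR are nuclear receptors that sense foreign compounds. Of 26 of their target genes, 1 was higher at an unadjusted p below 0.01 (0.915% of all genes were). The median difference was 0.07. Aldh1a1, a retinaldehyde dehydrogenase, was at 636 to 1307 CPM with nilotinib (median 984) and 657 to 1138 with L-NAME (median 694), a log2 difference of 0.38 (0.12 to 0.63, adjusted p = 0.405). Its vehicle median was 981 CPM, at the nilotinib level. Cyp3a11, the main mouse counterpart of the enzyme that oxidizes nilotinib in humans, had medians of 1753 CPM at 10 mg/kg, 2209 at 30 mg/kg, 1650 with L-NAME and 1515 with the vehicle. Its difference was 0.23 from L-NAME (0.00 to 0.45, adjusted p = 0.649) and 0.28 between the doses (0.02 to 0.53, adjusted p = 0.876). Me1, the malic enzyme that supplies NADPH, differed by 0.54 (0.08 to 1.01, adjusted p = 0.559). In the list of NRF2 targets, which holds antioxidant and conjugating enzymes, 26 of 27 differences were positive with a median of 0.24, none past an unadjusted p of 0.01. Abcc6, a transporter of the hepatocyte membrane, differed by -0.30 (-0.50 to -0.10, adjusted p = 0.405).

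Among 14 UDP-glucuronosyltransferases, which attach glucuronic acid to bilirubin, steroids and drugs, 13 differences from L-NAME were positive (median 0.26). Of the 14, 2 were higher at an unadjusted p below 0.01 (0.915% of all genes were). Against vehicle, 5 of the 14 were lower at an adjusted p below 0.05 with nilotinib (4.1% of all genes were) and 10 of the 14 with L-NAME (6.22%). Ugt1a9 (chromosome 1, 88070800 to 88218997) was at 4.50 to 66.8 CPM with nilotinib (median 28.7), 3.21 to 20.6 with L-NAME (median 13.7) and 23.6 to 107.9 with the vehicle (median 56.6). Above every L-NAME mouse lay 14 of 16 nilotinib mice, and the nilotinib median lay between those of L-NAME and vehicle. The difference from L-NAME was 1.25 (0.53 to 1.97, adjusted p = 0.36), and L-NAME was lower than vehicle by -2.23 (adjusted p = 0.000188). Ugt1a6a of the same locus went the other way, at -0.60 (-1.11 to -0.08, adjusted p = 0.56). The Ugt1a genes overlap and share their last exons, so the counts of single members are uncertain. Ugt2b34 lies outside that locus, and its difference was 0.26 (0.07 to 0.44, adjusted p = 0.465).

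Genes of lipid metabolism followed. Of 21 lipogenesis genes, 18 differences were positive (median 0.21) and 1 had an unadjusted p below 0.01 (2.07% of all genes had). At an adjusted p below 0.05 the number lower than vehicle was 7 with nilotinib (4.1% of all genes were) and 10 with L-NAME (6.22%). Elovl6, which elongates palmitate to stearate, was at 67.1 to 270.5 CPM with nilotinib (median 123), 42.4 to 97.2 with L-NAME (median 64.7) and 101.5 to 214.5 with the vehicle (median 165.5). All 16 nilotinib mice were above the L-NAME median and 9 above every L-NAME mouse. Elovl6 had a median of 81.1 CPM at 10 mg/kg, within the L-NAME range and below every vehicle mouse, and of 134 at 30 mg/kg. Its log2 difference was 1.01 (0.47 to 1.55, adjusted p = 0.317), and it was lower with L-NAME than with vehicle by -1.38 (adjusted p = 0.00154). Fasn, the fatty acid synthase, differed by 0.62 (0.03 to 1.22, adjusted p = 0.645) with medians of 644 CPM with nilotinib, 431 with L-NAME and 1321 with the vehicle.

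The 20 enzymes of cholesterol synthesis had a median difference of 0.08 from L-NAME, and none had an unadjusted p below 0.01. Mvd and Fdps, which act early in the pathway, differed by 0.80 (0.11 to 1.49) and 0.67 (0.02 to 1.33), with adjusted p of 0.559 and 0.649. Against ponatinib 19 of the 20 enzymes were lower with nilotinib at an adjusted p below 0.05 (against 3.57% of all genes) with a median of -0.98, and against imatinib 13 of 20 were (against 1.88%, median -0.83). From vehicle the median difference was smaller, at -0.26 with nilotinib and -0.55 with L-NAME. At the same threshold 2 and 3 of the 20 were lower than vehicle (4.1% and 6.22% of all genes were).

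Cyp8b1 makes the 12-hydroxylated bile acid cholic acid (chromosome 9, 121914356 to 121916305). It was at 93.9 to 266 CPM with nilotinib (median 176), 55.8 to 141.5 with L-NAME (median 88.3) and 118 to 279 with the vehicle (median 157). The log2 difference was 0.92 (0.44 to 1.40, adjusted p = 0.317), and 11 of 16 nilotinib mice lay above every L-NAME mouse. L-NAME was lower than vehicle by -0.92 (adjusted p = 0.0159). Cyp8b1 was the only one of the 17 bile acid genes past an unadjusted p of 0.01 (2.07% of all genes were). Ehhadh, a peroxisomal enzyme of fatty acid oxidation and a PPAR-alpha target, differed by 0.56 (0.26 to 0.87, adjusted p = 0.317) with medians of 847.5 CPM with nilotinib, 547 with L-NAME and 782 with the vehicle. Cyp4a31, another PPAR-alpha target, differed by 0.57 from L-NAME (adjusted p = 0.482) and was higher with nilotinib than with vehicle by 0.71 (adjusted p = 0.0315).

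The apolipoproteins lay on the opposite side, with 16 of 18 differences negative and a median of -0.22. Apoc1, Apoc2 and Apoc4 stand side by side on chromosome 7 and encode small proteins of VLDL and HDL. Apoc1 was at 1306 to 2724 CPM with nilotinib (median 1944), 1751 to 4419 with L-NAME (median 2367) and 950 to 1661 with the vehicle (median 1247). The ranges with nilotinib and with L-NAME overlapped, and both reached above the vehicle range. The difference from L-NAME was -0.36 (-0.64 to -0.08, adjusted p = 0.494), while Apoc1 was higher than vehicle with nilotinib by 0.61 (adjusted p = 0.00539) and with L-NAME by 0.97 (adjusted p = 7.87e-05). Apoc2 and Apoc4 differed from L-NAME by -0.30 and -0.32 (adjusted p = 0.463 and 0.514) and both were higher than vehicle in either group at an adjusted p below 0.05. Whether reads of the human APOC1 and APOE transgenes were counted on mouse genes was not tested.

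Coagulation was a main concern of the study. The 19 coagulation factors and cofactors had a median difference of -0.13 from L-NAME. Of these, 1 had an unadjusted p below 0.01 (2.07% of all genes had). F5, factor V of the prothrombinase complex, was at 312 to 597 CPM with nilotinib (median 402), 288.5 to 458 with L-NAME (median 377) and 431 to 586 with the vehicle (median 510). Its difference from L-NAME was 0.10 (-0.08 to 0.28, adjusted p = 0.861). It was lower than vehicle with nilotinib by -0.34 (adjusted p = 0.0101) and with L-NAME by -0.44 (adjusted p = 0.00227). F9, factor IX, differed from L-NAME by -0.04 (-0.26 to 0.19) and from vehicle by -0.37 (adjusted p = 0.03). Pros1, the anticoagulant protein S, differed from L-NAME by -0.01 (-0.26 to 0.24). The intervals of these 3 genes held the difference to under 1.5-fold either way.

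F7, the start of the tissue factor pathway, was at 73.2 to 180 CPM with nilotinib (median 131), 114 to 209 with L-NAME (median 162) and 79.2 to 187 with the vehicle (median 131), a difference of -0.37 (-0.65 to -0.09, adjusted p = 0.482). F10, factor X, differed by -0.24 (-0.43 to -0.04, adjusted p = 0.54). The kininogens Kng1 and Kng2, of the contact pathway, differed by -0.27 (adjusted p = 0.519) and -0.29 (adjusted p = 0.442). In F7, F10, Kng1 and Kng2 the nilotinib and vehicle medians lay closer to each other than either did to L-NAME.

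The alpha-1-antitrypsin genes Serpina1a to Serpina1e lie in a cluster on chromosome 12 and are near copies of each other, so the split of reads among them is uncertain. Their differences from L-NAME ran from -0.20 to -0.11, with adjusted p from 0.79 to 0.976. Serpina1a was higher than vehicle with nilotinib by 0.39 (adjusted p = 0.0118) and with L-NAME by 0.55 (adjusted p = 0.000947).

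Acute-phase genes, which the liver makes in inflammation, had the lowest median of the pathway lists, at -0.44 over 22 genes, with 19 differences negative, 3 past an unadjusted p of 0.05 and none past 0.01. Hpx, hemopexin, was at 4365 to 7268 CPM with nilotinib (median 5917) and 6226 to 10110 with L-NAME (median 7382), a difference of -0.43 (-0.80 to -0.06, adjusted p = 0.561). Itih4, an inhibitor heavy chain of plasma, differed by -0.45 (adjusted p = 0.558) and was lower with nilotinib than with vehicle by -0.67 (adjusted p = 0.0227). No acute-phase gene was called between L-NAME and vehicle (median 0.55). Of 26 complement genes 1 had an unadjusted p below 0.01 (2.07% of all genes had). It was Serping1, the C1 inhibitor, at -0.32 (-0.54 to -0.10, adjusted p = 0.417).

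The widest differences among genes at 5 CPM or more, on the lower side, were in the metallothioneins, small proteins that bind zinc and copper and respond to metals, glucocorticoids and inflammation. Mt1 (chromosome 8, 94179082 to 94180327) was at 29.1 to 285 CPM with nilotinib (median 80.4), 131 to 466 with L-NAME (median 286) and 15.9 to 170 with the vehicle (median 74.5). L-NAME was the high group, and 14 of 16 nilotinib mice lay below every L-NAME mouse. The difference was -1.65 (-2.53 to -0.76, adjusted p = 0.317 in edgeR and 0.0444 in voom), and L-NAME was higher than vehicle by 1.78 (adjusted p = 0.0228). Nilotinib differed from vehicle by 0.13 (adjusted p = 0.938). Mt2, beside it on chromosome 8, was at 8.82 to 272 CPM with nilotinib (median 32.9) and 65.4 to 233 with L-NAME (median 153), a difference of -1.63 (-2.70 to -0.57, adjusted p = 0.405 in edgeR and 0.0453 in voom). The other genes of the list, zinc transporters for the most part, brought its median to 0.05 over 17 genes. Tfr2, the transferrin receptor by which hepatocytes sense iron, differed by -0.31 (-0.52 to -0.10, adjusted p = 0.405).

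**Figure D4:**
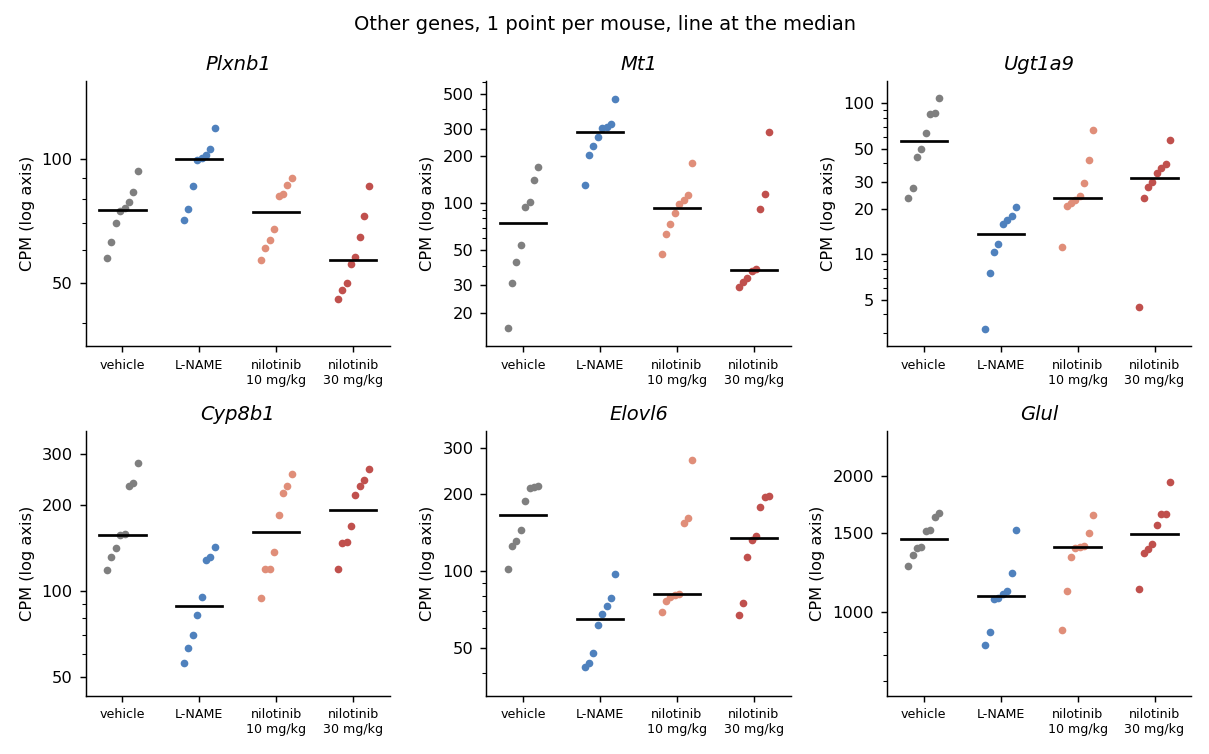
CPM on a log axis for 6 genes in the vehicle, L-NAME, nilotinib 10 mg/kg and nilotinib 30 mg/kg groups, with 1 point per mouse and a line at the group median. In Plxnb1 and Mt1 the L-NAME median is the highest of the 4, and in Ugt1a9, Cyp8b1, Elovl6 and Glul it is the lowest.

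The targets of both drugs were looked up directly. Nos1 and Nos2, the neuronal and inducible nitric oxide synthases, did not pass the filter on low counts, and 12 of 16 nilotinib mice and 5 of 8 L-NAME mice had 0 reads of each. These reads were not scaled for depth, and no comparison was made. Nos3, the endothelial synthase, was at 1.44 to 9.07 CPM with nilotinib (median 7.18), 2.43 to 10.5 with L-NAME (median 8.11) and 1.62 to 6.60 with the vehicle (median 4.83). Its difference was -0.26 (-0.91 to 0.39, adjusted p = 0.929), an interval too wide to hold it within 1.5-fold.

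Of 28 genes of nitric oxide and arginine metabolism, 21 differences were negative (median -0.13). An unadjusted p below 0.01 was reached by 2 of the 28 (2.07% of all genes reached it). Arg1 (chromosome 10, 24915221 to 24927484) was at 675 to 1376 CPM with nilotinib (median 884), 790 to 1484 with L-NAME (median 1048) and 709 to 1742 with the vehicle (median 1106). Its difference from L-NAME was -0.28 (-0.49 to -0.08, adjusted p = 0.446), with 15 of 16 nilotinib mice at or below the L-NAME median. It was lower with nilotinib than with vehicle by -0.35 (adjusted p = 0.0279), than with imatinib by -0.41 (adjusted p = 0.00762) and than with ponatinib by -0.52 (adjusted p = 3.94e-05). Agmat, which breaks down agmatine, an amine made from arginine, differed from L-NAME by -0.31 (-0.51 to -0.12, adjusted p = 0.405). Gchfr, the feedback protein of the enzyme that makes the cofactor of the nitric oxide synthases, differed by -0.31 (-0.58 to -0.04, adjusted p = 0.564).

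The 15 kinase genes that nilotinib inhibits as proteins had a median difference of -0.02 in their mRNA. Abl1 was at 31.8 to 48.1 CPM with nilotinib (median 41.7) and 35.0 to 62.0 with L-NAME (median 41.4), a difference of -0.10 (-0.33 to 0.14). Kit differed by -0.19 (-0.70 to 0.31), Pdgfrb by 0.09 (-0.33 to 0.51), Csf1r by 0.12 (-0.35 to 0.58), Ddr1 by 0.07 (-0.65 to 0.79) and Ddr2 by 0.07 (-0.47 to 0.61). None of these 6 had an adjusted p below 0.92. Pdgfra, which marks stellate cells and fibroblasts, differed by 0.52 (0.05 to 0.99, adjusted p = 0.61), and Zak, a stress kinase, by -0.33 (-0.63 to -0.02, adjusted p = 0.629).

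Genes of the respiratory chain and the ribosome were then compared, first with vehicle and then between the 2 treatments. The 36 nuclear subunits of complex I had a median of 0.36 for nilotinib and 0.52 for L-NAME against vehicle, with 10 and 21 genes higher at an adjusted p below 0.05 (2.42% and 5.48% of all genes were), and a median of -0.13 against each other. The 41 subunits of complexes II to V had 18 and 27 genes higher than vehicle and a median of -0.15 between nilotinib and L-NAME. Among 78 cytosolic ribosomal proteins, 26 and 33 were higher than vehicle, and the median between nilotinib and L-NAME was -0.14. In all 3 groups the smallest adjusted p between nilotinib and L-NAME was 0.407 or more. Rpl14, of the large ribosomal subunit, was at 74.7 to 129 CPM with nilotinib (median 89.2), 97.0 to 149 with L-NAME (median 113) and 50.5 to 71.1 with the vehicle (median 67.0). All nilotinib and all L-NAME mice lay above every vehicle mouse in Rpl14, and the share of all genes that did so was not counted. The difference from L-NAME was -0.31 (-0.52 to -0.10, adjusted p = 0.407). Rps20, Ndufa2 of complex I and Atp5e of ATP synthase differed from L-NAME by -0.30 to -0.34 (adjusted p from 0.463 to 0.602), and each was higher than vehicle in either group. As given above, the share of reads outside genes also separated both groups from vehicle.

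Translation and protein turnover were taken next. Of 40 translation initiation factors, 3 were higher and none lower with nilotinib than with L-NAME at an unadjusted p below 0.01 (0.915% and 1.15% of all genes were). Their median difference was 0.03. Mrps9, of the mitochondrial ribosome, differed from L-NAME by -0.50 (-0.81 to -0.18, adjusted p = 0.405). Eif2s1, the alpha subunit of EIF2, was at 24.0 to 43.8 CPM with nilotinib (median 32.2), 13.3 to 30.2 with L-NAME (median 25.7) and 27.5 to 40.1 with the vehicle (median 31.0), a difference of 0.48 (0.20 to 0.76, adjusted p = 0.369). Of the 37 proteasome subunits 1 was higher and 2 were lower at an unadjusted p below 0.01 (0.915% and 1.15% of all genes were). Psmd1, of the regulatory particle, differed from L-NAME by 0.39 (0.11 to 0.68, adjusted p = 0.435) and was lower than vehicle in both groups, by -0.73 with nilotinib (adjusted p = 0.000376) and -1.12 with L-NAME (adjusted p = 9.64e-06). The immunoproteasome subunits Psmb9 and Psmb10, which interferon raises, differed by -0.53 (adjusted p = 0.444) and -0.47 (adjusted p = 0.446), while none of 34 interferon-stimulated genes passed an unadjusted p of 0.05.

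Hepatocytes express different enzymes near the portal and the central vein. Of 20 pericentral genes 2 were higher at an unadjusted p below 0.01 (0.915% of all genes were). Differences were positive in 11 of the 20 and negative in 9, with a median of 0.05. Glul, the glutamine synthetase of the last row of cells around the central vein, was at 909 to 1945 CPM with nilotinib (median 1398), 844 to 1519 with L-NAME (median 1084) and 1266 to 1656 with the vehicle (median 1452), a difference of 0.36 (0.16 to 0.56, adjusted p = 0.317). Nkd1, a Wnt target of the same cells, differed by 0.64 (0.25 to 1.04, adjusted p = 0.405). Of 20 periportal genes 1 was higher and 2 were lower at an unadjusted p below 0.01 (0.915% and 1.15% of all genes were). Among them were Cyp2f2 at 0.36 (adjusted p = 0.431) and the serine dehydratase Sds at -0.59 (adjusted p = 0.405). Of 20 circadian clock genes 7 differences were positive and 13 negative (median -0.27). The median was 0.14 for 10 mg/kg and -0.50 for 30 mg/kg against L-NAME, and no member was called at either dose. The clock repressors Nr1d1 and Cry2 differed by -0.46 (adjusted p = 0.438) and -0.38 (adjusted p = 0.442). The hour at which each liver was taken is not given in the sources used here. Mup20, a major urinary protein whose family members are near copies and whose count is therefore uncertain, ranged from 5.84 to 223 CPM within the nilotinib group and differed by 1.67 (0.51 to 2.83, adjusted p = 0.417).

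Genes of other cell types were compared last. The 34 collagens and matrix genes had a median of 0.31, with 31 differences positive and none past an unadjusted p of 0.01. Col1a2, a chain of type I collagen, was at 22.4 to 142 CPM with nilotinib (median 51.6), 12.6 to 82.0 with L-NAME (median 29.1) and 24.2 to 167 with the vehicle (median 91.2), a difference of 0.68 (0.02 to 1.35, adjusted p = 0.645). Against imatinib 15 and against ponatinib 18 of the 34 were higher with nilotinib at an adjusted p below 0.05 (3.23% and 3.4% of all genes were). From vehicle the median difference of the 34 was -0.21 with nilotinib and -0.51 with L-NAME. None was higher than vehicle at that threshold, while 2 were lower with nilotinib and 4 with L-NAME (4.1% and 6.22% of all genes were). Summed stellate cell markers were at 497 to 1006 CPM with nilotinib (median 574.5), 362 to 725 with L-NAME (median 478) and 338 to 902 with the vehicle (median 609). Their part in the collagen differences was not tested.

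Summed Kupffer cell and macrophage markers lay at 1055 to 2478 CPM with nilotinib and 849 to 2330 with L-NAME, and none of the 12 had an unadjusted p below 0.05. Of the 7 tested markers of monocytes and neutrophils, S100a9, a calcium-binding protein of neutrophils, was at 0 to 6.13 CPM with nilotinib (median 1.44) and 1.48 to 13.8 with L-NAME (median 5.59), a difference of -1.81 (-3.15 to -0.47, adjusted p = 0.466). Ighg2b, an immunoglobulin constant region that marks plasma cells, was at 0 to 2.70 CPM with nilotinib (median 0.333) and 0.201 to 16.0 with L-NAME (median 3.04), a difference of -2.40 (-3.99 to -0.80, adjusted p = 0.405). At the depth of these libraries such levels rest on few reads per mouse. Immunoglobulin genes share near-identical sequence, so the count of this one is uncertain.

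Over the 42 pathway lists, 24 had at least 1 member past an unadjusted p of 0.01 between nilotinib and L-NAME and 18 had none. Of all genes tested 2.07% passed that p, and the number of lists was not tested against that share. No member of any list was called in edgeR, while DESeq2 called Ero1b and voom Mt1 and Mt2. The list medians ran from -0.44 (acute-phase genes) to 0.38 (ER chaperones and XBP1 targets). In both of these lists the nilotinib median lay at that of vehicle, at 0 and -0.01, and the L-NAME median away from it, at 0.55 and -0.44.

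**Figure D5:**
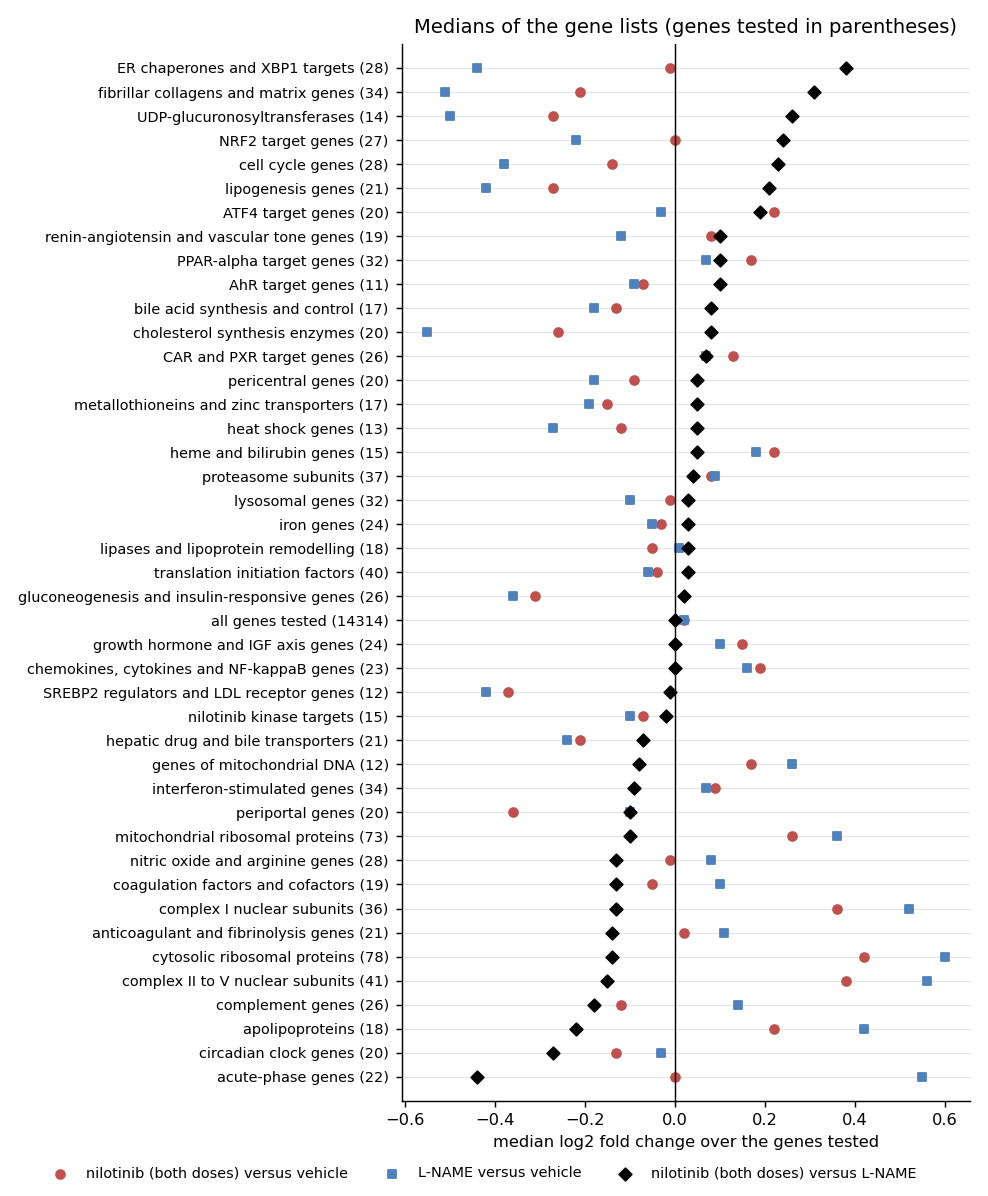
For each gene list, with the number of genes tested in parentheses, symbols give the median log2 difference of nilotinib from L-NAME (black diamonds), of nilotinib from vehicle (red circles) and of L-NAME from vehicle (blue squares). Lists are ordered by the black diamonds, which run from -0.44 to 0.38, with all genes tested near 0.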

How the data were processed

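Liver RNA of 56 mice in 7 groups of 8 was sequenced from poly(A) libraries (NEBNext Ultra) on an Illumina NextSeq 500. The authors aligned reads to GRCm38 with TopHat2 2.0.14 and Bowtie2 2.1.0, used SAMtools 0.1.18, and deposited raw counts per Ensembl gene from HTSeq 0.6.1p1, 1 library per mouse. Reads with several alignments were left uncounted, and whether counting used strand is not given in the sources used here, so overlapping and antisense genes cannot be told apart. Groups were taken from the labels.

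The 45513 genes were named by GENCODE M21 (44585 with a symbol). Genes with too few reads were removed with edgeR's filterByExpr, leaving 14314 of the 24040 with a read. HTSeq's summary lines stayed out of all library sizes and served only for the share of reads outside genes, taken over gene, no-feature and ambiguous reads. A quasi-likelihood model (edgeR 4.0.16 in R 4.3.3, TMM normalization, robust estimation) was fitted to the 56 mice with 1 term per group, and the mean of both nilotinib groups was set against L-NAME. A gene was called at a Benjamini-Hochberg adjusted p below 0.05 over the 14314 genes. The joint test took the largest of 4 p-values. Levels are CPM after TMM normalization, differences are log2 and intervals are 95%. DESeq2 1.42.0 and limma voom 3.58.1 were alternatives, as were other filters, normalizations, thresholds, sets of mice and a covariate. The code was tested on simulated data.

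Named genes were up to 4 members with the smallest p between nilotinib and L-NAME in each of 42 pathway lists and 13 cell type lists. These members were thus picked by their values, and their intervals do not allow for that. Also named were the study's coagulation genes F5, F9, Pros1 and Serpina1a to Serpina1e, the nitric oxide synthases and 7 kinases. Others are said to be chosen after their values were seen. Of 1197 genes listed, 1193 matched the files and 1122 were tested. The groups and lists were chosen with earlier results of these data known. Promoters were those of RefSeq. P-values measure the spread between mice of a group, and no sequencing batch or date is given in the labels.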

Additional observations from a re-analysis of the deposited data

Results flagged for a closer look

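In 320 groups of 8 mice (each named gene and library measure in the vehicle, L-NAME and both nilotinib groups), 24 had 1 mouse apart from the others by Dixon's ratio (the gap to the nearest mouse over the whole range, critical value 0.526), where 1 in 20 groups, or 16, is flagged when nothing is apart. For genes the ratio was taken on log2 CPM, or on CPM where a mouse of the group had no read. For library measures it was taken on the values themselves. No cause of these flags was tested.

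Library measures gave 4. L-NAME mouse 10 had the most counted reads (97473341, ratio 0.978), the highest share of reads outside genes (16.75%, ratio 0.745) and the most genes detected (21174, ratio 0.66). Mouse 3 of nilotinib 10 mg/kg had the fewest counted reads (5342379, ratio 0.82).

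Nilotinib 30 mg/kg mouse 20 stood apart in 3 genes. It was lowest for Ugt1a9 (4.50 CPM, the others 23.4 to 57.3, ratio 0.648) and Ehhadh (491 CPM, ratio 0.545) and highest for Mt2 (272 CPM, the others 8.82 to 33.3, ratio 0.613). In the same group, mouse 49 was highest for Mup20 (223 CPM, ratio 0.598) and lowest for Sds (135 CPM, ratio 0.57), and mouse 37 was lowest for Cdc42bpg (10.7 CPM, ratio 0.546). At 10 mg/kg, mouse 9 was highest for Me1 (301.5 CPM, ratio 0.541) and Arg1 (1376 CPM, ratio 0.632), mouse 3 for Apoc2 (246 CPM, ratio 0.598), mouse 19 for F5 (597 CPM, ratio 0.534) and mouse 36 for Col1a2 (142 CPM, ratio 0.657).

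With L-NAME, mouse 26 was highest for Hsp90b1 (1119 CPM, ratio 0.532) and lowest for Ugt1a6a (13.6 CPM, ratio 0.529). Mouse 55 was highest for Apoc1 (4419 CPM, ratio 0.564) and Apoc2 (369 CPM, ratio 0.534), and mouse 50 for Aldh1a1 (1138 CPM, ratio 0.69). Mouse 38 was lowest for Nos3 (2.43 CPM, ratio 0.602) and mouse 45 for Kit (4.76 CPM, ratio 0.609). With the vehicle, mouse 33 was highest for Psmb9 (86.6 CPM, ratio 0.646) and mouse 22 lowest for Ddr2 (3.64 CPM, ratio 0.559).

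Reads outside annotated genes, which entered the comparisons of genes only as a covariate, took 10.12% with nilotinib and 10.99% with L-NAME against 7.97% with the vehicle, and all 16 and all 8 mice were above the highest vehicle mouse at 8.67%.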

How the results depend on the processing

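Nilotinib against L-NAME stayed at 0 called genes in edgeR under other normalization, filters, samples, covariate and threshold, and gave 2 in DESeq2, 5 in voom and 296 at an unadjusted p below 0.01, the study's cut-off. Nilotinib 10 mg/kg against L-NAME gave 298 at that cut-off and 16 in DESeq2, and 30 against 10 mg/kg gave 179 and 2. Nilotinib 30 mg/kg against L-NAME gave 213 at that cut-off and 32 in voom. Its 1 call became 0 at an adjusted p below 0.01 and with only the groups compared. It also became 0 without the 3 nilotinib and L-NAME mice with over 12% of reads outside genes. These were L-NAME mouse 10 and nilotinib 30 mg/kg mice 31 and 44. Imatinib mouse 21 (14.1%) and ponatinib 10 mg/kg mouse 14 (15.2%) were also over 12% and stayed in that fit. The joint test gave 2 genes at the unadjusted cut-off. Nilotinib against vehicle gave 1429 at the unadjusted cut-off, 382 at an adjusted p below 0.01, 2499 in voom and 171 with the share of reads outside genes as covariate, and L-NAME against vehicle gave 835 at an adjusted p below 0.01, 3737 in voom and 254 with the covariate. The cause was not tested. The split of nilotinib against vehicle, 347 higher and 587 lower, was 634 and 650 in DESeq2, and 443 and 506 with upper-quartile factors.

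Over 77 named genes and 10 alternatives, 5 differences near 0 changed sign, namely F9 (0.03), Pdgfrb (-0.01), Ddr1 (-0.02) and Ddr2 (-0.12) in voom, and Pros1 (0.00) without the 3 mice. The alternatives without L-NAME mouse 10, without the 3 mice and without robust estimation were added after seeing the data. Without L-NAME mouse 10 the difference in the share of reads outside genes was -0.0467 points (exact permutation test, p = 0.927). No paired analysis was possible because each mouse number belongs to 1 mouse. Depth limits the weakest genes: over all 14314 genes, 70.3% of intervals lay within 2-fold.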
